A study of Mus musculus with 9 samples.

Results

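The genes described here encode the epidermal growth factor (EGF) receptor family and its ligands, measured in mouse myoblasts that overexpressed Pax7 or Pax3. The members were a list of 10 symbols, and each was represented by the probe set that carried that symbol alone and had the highest mean over the arrays. A named probe set was found for 9 of the 10 members, among 19661 genes tested. These were the receptors Egfr, Erbb2, Erbb3 and Erbb4 and the ligands Ereg, Hbegf, Tgfa, Btc and Nrg1, each with 1 probe set. Areg had no named probe set and its level was not analysed here. The cells were cultured myoblasts, the dividing precursors of muscle fibres, from skeletal muscle of Balb/c mice. Biotin-labelled target made from total RNA was hybridised to 9 arrays. Of these, 3 were from myoblasts overexpressing Pax7, 3 from myoblasts overexpressing Pax3 and 3 from myoblasts with an empty vector (control, called CTAP in the labels). The medium was shared by all groups, F10 supplemented with bFGF (a fibroblast growth factor, 4 ng/ml) and with 20% serum. The age and sex of the donor mice, the promoter of the vectors, and whether a group was 1 clone or several cultures are not stated in the labels. The p-values below therefore measure the spread between these samples, which may be technical.

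Receptors of this family are tyrosine kinases of the cell surface that signal as pairs. EGF, Tgfa and Areg bind Egfr; Hbegf, Btc and Ereg bind Egfr and Erbb4; neuregulins such as Nrg1 bind Erbb3 and Erbb4. Erbb2 has no known ligand of its own and serves as partner of the others, while the kinase domain of Erbb3 has little catalytic activity, so that Erbb3 signals through its partners. The ligands are made as membrane proteins and are released by proteases of the ADAM family. In muscle, Nrg1 and its receptors are known for their part at the nerve-muscle contact and in the muscle spindle, and EGF receptor signalling has been studied in dividing myoblasts and satellite cells. Pax3 and Pax7 are related transcription factors of muscle precursors, with a paired domain and a homeodomain that bind DNA.

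The overexpressed genes followed the labels. Pax7 stood at a log2 intensity of 12.28 ± 0.0302 in Pax7 myoblasts, 8.18 ± 0.0648 in Pax3 myoblasts and 10.51 ± 0.0809 in control myoblasts (SD, n = 3 each). Pax3 stood at 6.82 ± 0.0391 in Pax7, 11.05 ± 0.0456 in Pax3 and 5.83 ± 0.0707 in control myoblasts. Sex-linked transcripts separated the control arrays from the rest: Xist stood at 11.72, 11.96 and 4.77, and the Y-linked Eif2s3y at 3.08, 3.12 and 8.78, in Pax7, Pax3 and control myoblasts. Uty and Kdm5d, also Y-linked, were likewise high in control arrays only, at 9.27 and 8.31. Overexpression and this difference cannot be told apart in a comparison with control, whereas the comparison of Pax7 with Pax3 myoblasts involves no control array. Within a group, the correlation between arrays was 0.9974 to 0.9991, taken across genes, which are not independent replicates. As a guide to the level of genes not expected in muscle cells, 1184 olfactory and vomeronasal receptor genes had a median of 3.73 and a 95th percentile of 5.53 over the 9 arrays.

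Markers of other cell types were read beside the members, and a marker rose or fell where its limma adjusted p was under 0.05. Over all genes this held for 43.2% with Pax7 (21.6% higher, 21.5% lower) and 39.6% with Pax3 (19.8% and 19.7%). Without the lowest 50% of genes by mean it held for 6846 of 9830 with Pax7 and 6528 with Pax3. The 8 myoblast markers all stood above the guide's 95th percentile, from 8.18 to 12.62 as group means. With Pax7, Myf5 and Pax7 itself rose and 5 fell. With Pax3, Myf5 and Cdh2 rose and 5 fell, Pax7 among them. That was 87.5% of the 8 markers in each comparison. Their summed linear intensity was 23102 to 23115 in Pax7, 22217 to 22390 in Pax3 and 25380 to 25763 in control arrays. Without the overexpressed Pax7 gene, a choice made after seeing the data, it was 18042 to 18244 in Pax7, 21933 to 22085 in Pax3 and 23827 to 24346 in control arrays. Des, the muscle intermediate filament, fell by 1.33 with Pax7 and 0.52 with Pax3, and the adhesion molecule Ncam1 fell by 1.13 and 0.53. The myogenic factor Myf5 went the other way, and rose by 2.02 with Pax7 and 1.97 with Pax3. Among 8 epithelial markers, 4 rose and 0 fell in each comparison with control, a share of 50%. Their sum was 887 to 965 in Pax7, 517 to 535 in Pax3 and 421 to 457 in control arrays, and Krt18, a keratin of simple epithelia, changed by 2.44 ± 0.0941 with Pax7 and 0.66 ± 0.0941 with Pax3 (log2 difference ± SE). The epithelial markers Cdh1, Cldn7, Esrp1 and Grhl2 did not exceed the guide's 95th percentile in any group mean. Of 6 macrophage markers, Cd68 alone rose (2.04 ± 0.0603 with Pax7, 1.36 ± 0.0603 with Pax3), and the other 5, Ptprc and Csf1r among them, stayed at or below the guide. The sum of the macrophage markers was 779 to 823 in Pax7, 547 to 555 in Pax3 and 269 to 306 in control arrays. The 4 measured of 6 Schwann cell markers passed in 0 comparisons by limma and summed to 221 to 229, 195 to 233 and 206 to 218, and S100b and Gfap stayed within the guide. At an unadjusted p under 0.05 the count was 1 of 12 comparisons of a gene. The 8 fibroblast markers summed to 735 to 770, 818 to 943 and 867 to 932, and the 6 endothelial markers to 292 to 300, 273 to 291 and 252 to 261, in Pax7, Pax3 and control arrays. Of the fibroblast markers, 1 rose and 1 fell with Pax7 (25%) and 1 rose and 2 fell with Pax3 (37.5%). Of the endothelial markers 2 rose with Pax7 (33.3%) and 1 with Pax3 (16.7%). None of these shares exceeded that of all genes. Whether the shifts of Des, Ncam1, Myf5, Krt18 and Cd68 have a part in the results on the members was not tested.

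Most of the family differed from control with each factor. With Pax7, Egfr, Erbb2, Ereg, Hbegf, Tgfa and Btc rose, Erbb3 and Nrg1 fell, and Erbb4 did not pass (limma, Benjamini-Hochberg adjusted p under 0.05 over all genes). That made 8 of 9 measured members, against a background of 43.2% of all genes in this comparison (21.6% higher and 21.5% lower). With Pax3, Egfr, Erbb2, Ereg, Hbegf, Tgfa and Btc rose and Erbb3 and Nrg1 fell, again 8 of 9, against a background of 39.6% (19.8% higher and 19.7% lower). The arrays of the groups compared did not overlap for any of these 8 members in either comparison, which held for 55.5% of all genes with Pax7 and 45.1% with Pax3. The shares of 43.2% and 39.6% include genes of low signal. Without the lowest 50% of genes by mean, 6846 of 9830 genes passed with Pax7 and 6528 with Pax3, beside 7 of the 7 members left. The members were chosen with earlier results of these data known. The median log2 difference of the measured members was 0.689 with Pax7 and 0.391 with Pax3, beside 0.0274 and 0.0157 over all genes. Both comparisons use the same 3 control arrays, so they are not independent of each other. In RNA from whole cultures, a change in the share of cells that express a gene and a change in RNA per cell cannot be told apart.

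**Figure D1:**
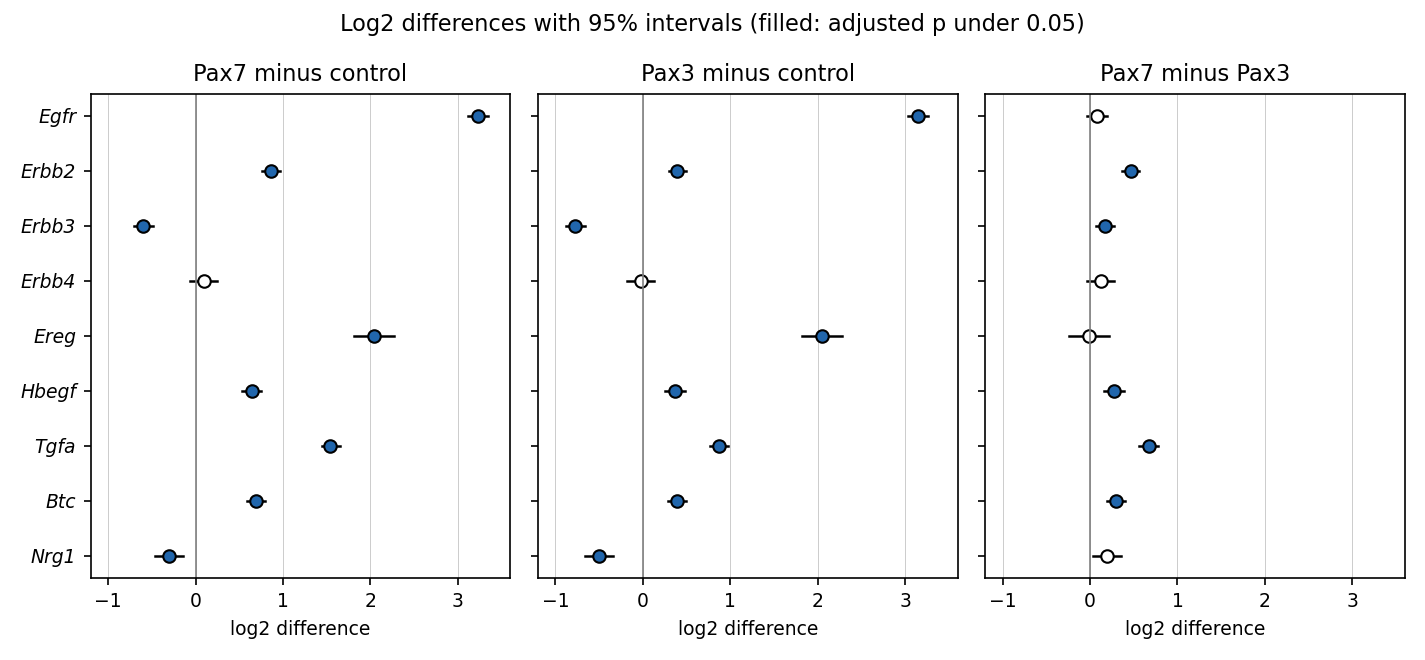
Log2 difference of each measured member (horizontal axis) for Pax7 minus control, Pax3 minus control and Pax7 minus Pax3, with 95% intervals from limma; filled points passed an adjusted p of 0.05. Egfr lies at 3.23 and 3.15 against control and at 0.08 between Pax7 and Pax3, whereas Tgfa lies at 1.54, 0.87 and 0.67.

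Upstream sequences of 3 members that rose are shown because these are the rising members for which RefSeq gives 250 bases wholly outside the annotated gene. They are given 5′ to 3′ on the strand of the gene, in the build GRCm38.p6, with the last base just before the RefSeq transcription start, and capitals mark the only motif match.
Egfr, chr11:16751953-16752202, plus strand: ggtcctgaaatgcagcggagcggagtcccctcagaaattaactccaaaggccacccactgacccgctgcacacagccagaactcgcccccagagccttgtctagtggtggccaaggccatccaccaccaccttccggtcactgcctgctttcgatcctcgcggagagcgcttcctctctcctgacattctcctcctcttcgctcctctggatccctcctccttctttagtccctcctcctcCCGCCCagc
Erbb2, chr11:98412234-98412483, plus strand: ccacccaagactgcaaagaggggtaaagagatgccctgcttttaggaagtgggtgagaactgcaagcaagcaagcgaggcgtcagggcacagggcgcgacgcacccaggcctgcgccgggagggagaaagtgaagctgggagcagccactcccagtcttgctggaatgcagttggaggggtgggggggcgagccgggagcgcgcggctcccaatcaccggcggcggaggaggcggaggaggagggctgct
Btc, chr5:91402995-91403244, minus strand: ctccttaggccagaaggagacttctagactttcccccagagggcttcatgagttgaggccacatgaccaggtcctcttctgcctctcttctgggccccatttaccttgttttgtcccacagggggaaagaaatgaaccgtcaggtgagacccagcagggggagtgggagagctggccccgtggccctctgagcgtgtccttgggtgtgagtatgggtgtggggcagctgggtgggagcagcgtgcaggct
Of the 10 members, 6 had an entry. G and C made up 60.8% of the Egfr window, 66.0% of the Erbb2 window and 59.6% of the Btc window, beside a median of 52.0% over 27025 genes. Searched on both strands were GTCACGC, a form of the site bound by the paired domain, P3, the palindromic site of paired-class homeodomain dimers, GGGCGG, the GC box bound by Sp1, and TATAAA, the TATA box. No one of these motifs overlaps another here. The windows of Erbb2 and Btc held none of the 4, and the Egfr window held 1 GC box on the opposite strand. Over all 27025 windows the shares with a match were 1.88% for GTCACGC, 0.47% for P3, 32.9% for GGGCGG and 13% for TATAAA. A missing match says only that these letters are not in this window.

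Egfr, the receptor shared by most ligands of the family, changed furthest. Its log2 intensity was 10.11, 10.19 and 10.19 in Pax7 myoblasts, 10.05, 10.14 and 10.05 in Pax3 myoblasts, and 6.85, 6.97 and 6.98 in control myoblasts. Every overexpressing array lay far above every control array, while the Pax7 and Pax3 arrays overlapped. Egfr was 9.36-fold higher with Pax7 (log2 difference 3.23 ± 0.0517, SE, limma adjusted p = 5.41e-12) and 8.86-fold higher with Pax3 (3.15 ± 0.0517, adjusted p = 1.24e-11). It ranked 46th from the top of 19661 genes by log2 difference with Pax7 and 26th with Pax3. Between Pax7 and Pax3 the difference was 0.08 (95% interval -0.04 to 0.19, adjusted p = 0.385). In control myoblasts Egfr stood at 6.94 ± 0.0745 (SD, n = 3), and 0.507% of the olfactory and vomeronasal genes lay above that.

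Erbb2, the partner receptor, rose by a smaller amount and in steps. It stood at 9.75, 9.74 and 9.80 in Pax7, 9.27, 9.33 and 9.29 in Pax3 and 8.95, 8.85 and 8.91 in control myoblasts. No group overlapped another, with Pax7 highest and control lowest. The log2 difference from control was 0.86 ± 0.0438 with Pax7 (1.82-fold, limma adjusted p = 3.03e-08) and 0.39 ± 0.0438 with Pax3 (1.31-fold, adjusted p = 2.45e-05).

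Erbb3, a receptor for neuregulins, went the other way. It stood at 8.90, 8.90 and 8.82 in Pax7, 8.71, 8.73 and 8.67 in Pax3 and 9.40, 9.52 and 9.51 in control myoblasts. All overexpressing arrays lay below all control arrays, and the Pax3 arrays were the lowest. Erbb3 was 1.51-fold lower with Pax7 (-0.60 ± 0.0479, limma adjusted p = 1.35e-06) and 1.71-fold lower with Pax3 (-0.77 ± 0.0479, adjusted p = 2.25e-07).

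Erbb4, the other receptor for neuregulins, gave a low signal in every group. It stood at 4.64, 4.51 and 4.71 in Pax7, 4.56, 4.36 and 4.58 in Pax3 and 4.53, 4.56 and 4.48 in control myoblasts. The groups overlapped, and 19.9%, 23.2% and 22.7% of the olfactory and vomeronasal genes lay above these group means. The log2 difference from control was 0.10 with Pax7 (95% interval -0.06 to 0.25, limma adjusted p = 0.294) and -0.02 with Pax3 (-0.18 to 0.13, adjusted p = 0.844).

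**Figure D2:**
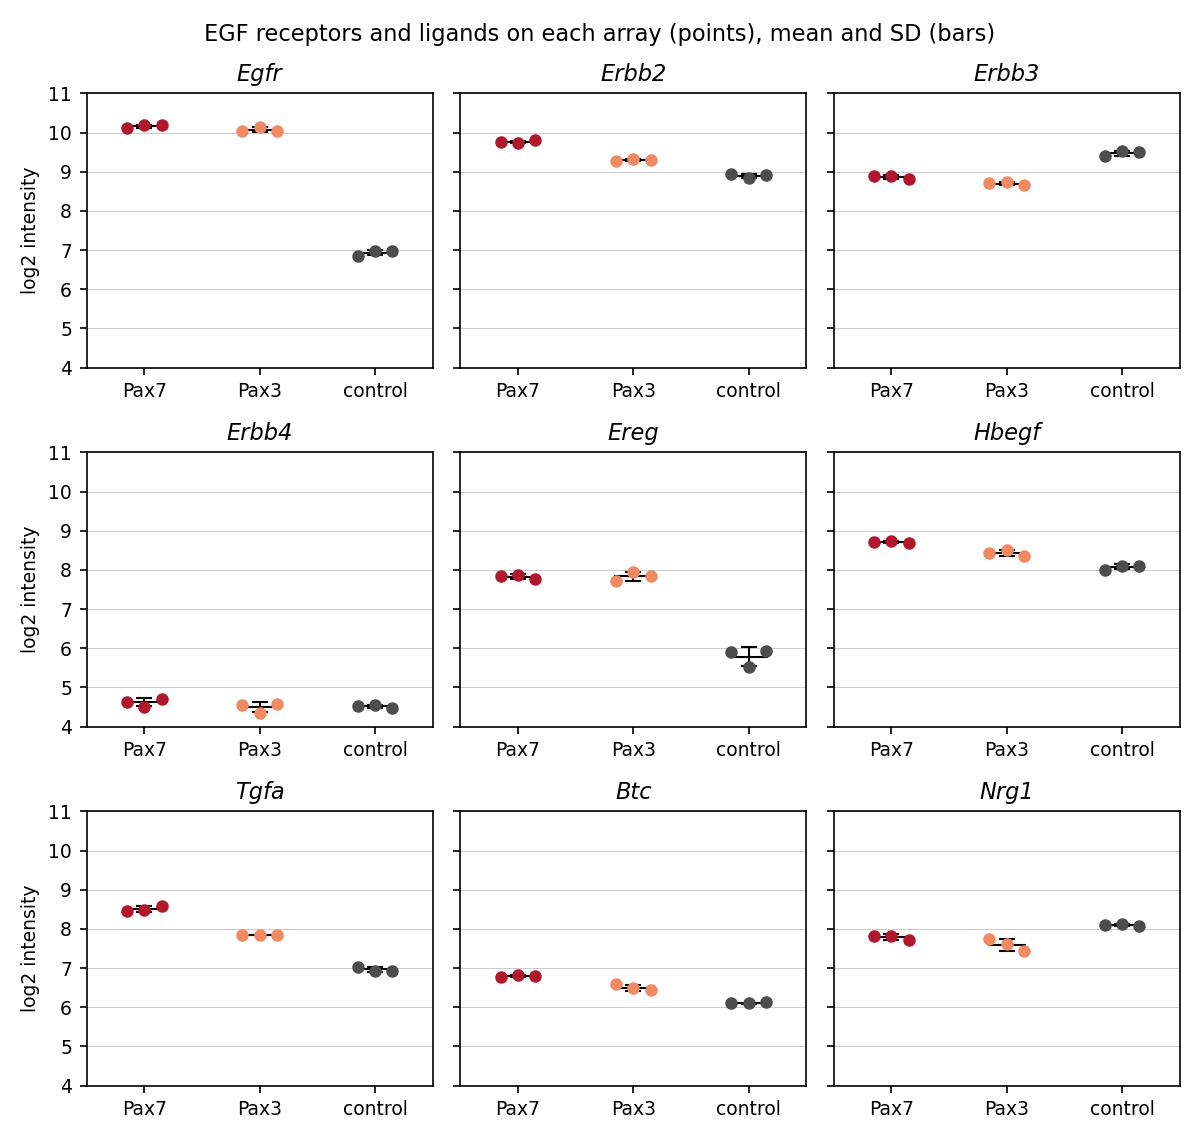
Log2 intensity (vertical axis) of the 9 measured members on each array, with Pax7, Pax3 and control arrays from left to right; points are arrays and bars are the mean and SD of 3 arrays. Levels of different probe sets are not comparable with each other. The Egfr panel shows Pax7 arrays at 10.11 to 10.19, Pax3 arrays at 10.05 to 10.14 and control arrays at 6.85 to 6.98; in the Erbb4 panel the groups overlap.

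Among the ligands, Ereg (epiregulin) changed most. It stood at 7.85, 7.87 and 7.76 in Pax7, 7.72, 7.95 and 7.84 in Pax3 and 5.90, 5.52 and 5.94 in control myoblasts. The overexpressing arrays lay well above the control arrays and overlapped each other, and 1 control array, replicate 2, was lower than the other two. The log2 difference from control was 2.04 ± 0.103 with Pax7 (4.11-fold, limma adjusted p = 2.91e-08) and 2.05 ± 0.103 with Pax3 (4.14-fold, adjusted p = 4.09e-08). Ereg ranked 167th from the top of all genes with Pax7 and 105th with Pax3. Between Pax7 and Pax3 the difference was -0.01 (95% interval -0.24 to 0.22, adjusted p = 0.966). The control mean of 5.79 was close to the guide's 95th percentile, and 2.7% of those genes lay above it.

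Tgfa (transforming growth factor alpha), which binds Egfr, rose in steps. It stood at 8.47, 8.48 and 8.59 in Pax7, at 7.84 in all 3 Pax3 arrays and at 7.04, 6.93 and 6.94 in control myoblasts. The groups were apart in the order Pax7, Pax3, control. The log2 difference from control was 1.54 ± 0.048 with Pax7 (2.92-fold, limma adjusted p = 5.58e-10) and 0.87 ± 0.048 with Pax3 (1.83-fold, adjusted p = 8.15e-08). The Pax3 values of Tgfa were identical to the last digit and equal to the median of the 9 arrays, so their SD of 0 is no measure of replicate error. Such identity of all 3 arrays of a group occurred in 926 genes (4.71%), and in 965 of 966 cases the shared value was the gene's median over the 9 arrays. Leaving the Pax3 arrays out of the fit gave a log2 difference of 1.54 (adjusted p = 2.54e-07) for Pax7 against control. A comparison with Pax3 cannot leave these values out, and its SE and p take them in.

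Btc (betacellulin) and Hbegf (heparin-binding EGF-like growth factor), both ligands of Egfr and Erbb4, rose less. Btc stood at 6.78, 6.83 and 6.80 in Pax7, 6.59, 6.49 and 6.44 in Pax3 and 6.11, 6.10 and 6.13 in control myoblasts. Its log2 difference was 0.69 ± 0.0458 with Pax7 (limma adjusted p = 2.85e-07) and 0.39 ± 0.0458 with Pax3 (adjusted p = 3.76e-05). Hbegf stood at 8.72, 8.74 and 8.68 in Pax7, 8.44, 8.51 and 8.37 in Pax3 and 8.0, 8.11 and 8.11 in control myoblasts. For both ligands the groups were apart, Pax7 highest and control lowest. The log2 difference of Hbegf was 0.64 ± 0.0503 with Pax7 (limma adjusted p = 1.14e-06) and 0.37 ± 0.0503 with Pax3 (adjusted p = 0.000131). Against a fold change of 1.2 (limma's treat test), Btc and Hbegf did not pass with Pax3 (adjusted p = 0.0557 and 0.179).

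Nrg1 (neuregulin 1), a ligand of Erbb3 and Erbb4, was lower in both groups. It stood at 7.83, 7.82 and 7.71 in Pax7, 7.74, 7.62 and 7.43 in Pax3 and 8.10, 8.12 and 8.07 in control myoblasts. All overexpressing arrays lay below the control arrays, and the Pax7 and Pax3 arrays overlapped. The log2 difference was -0.31 ± 0.0712 with Pax7 (1.24-fold lower, limma adjusted p = 0.00425) and -0.50 ± 0.0712 with Pax3 (1.41-fold lower, adjusted p = 0.000172). With Pax7 the call ended against a fold change of 1.2 (treat adjusted p = 0.963). Nrg1 has many transcript forms, and its 1 probe set cannot tell them apart.

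**Figure D3:**
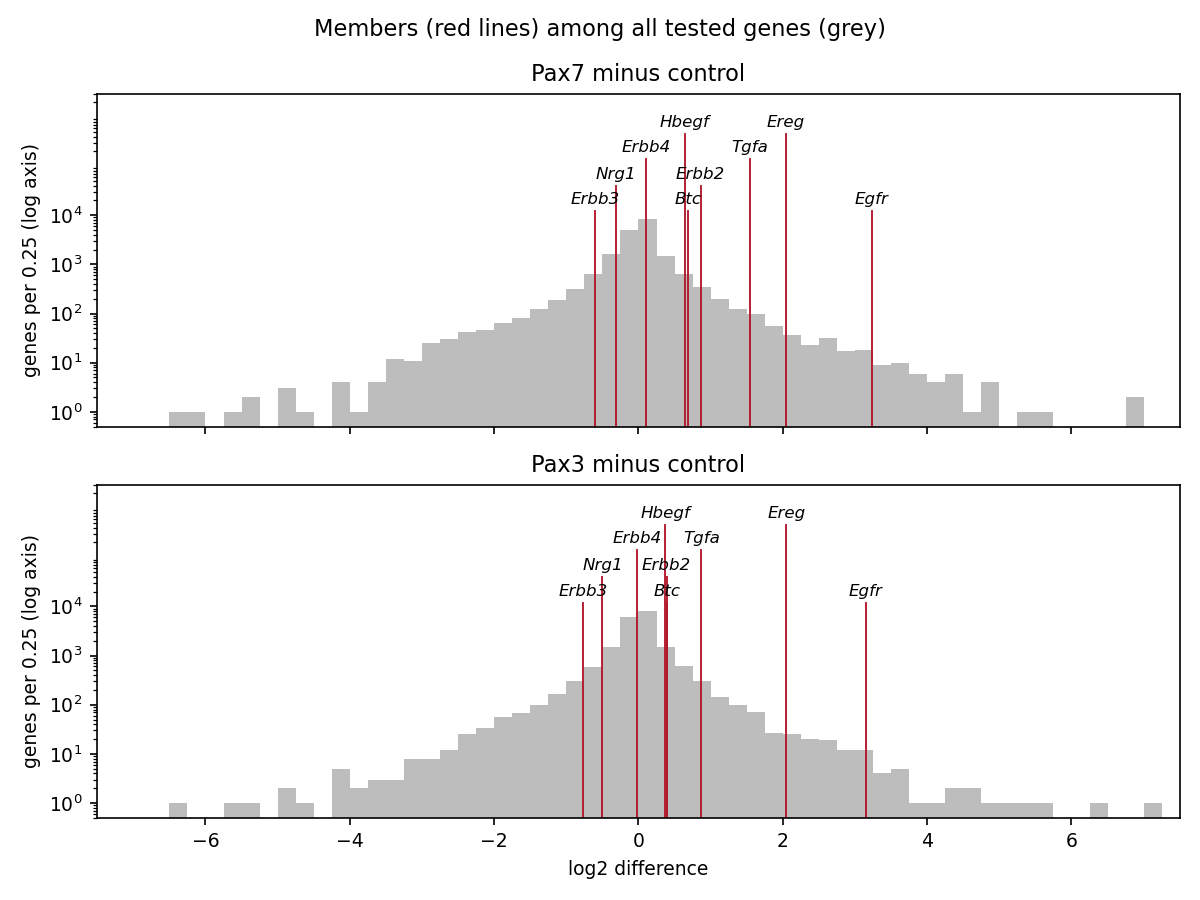
Number of genes per 0.25 log2 units (vertical log axis) by log2 difference from control (horizontal axis), for Pax7 and Pax3; grey bars are all 19661 genes and red lines the 9 measured members. Egfr (3.23 with Pax7, 3.15 with Pax3) and Ereg (2.04 and 2.05) lie in the upper tail, and Erbb3 (-0.60 and -0.77) lies furthest down among the members.

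The direct comparison of Pax7 with Pax3 myoblasts asked where the factors differed, and neither of these groups carried the Y-linked signal. Xist still differed between them by -0.24 (limma adjusted p = 0.0262). Pax7 was 5.02-fold lower in Pax3 myoblasts than in control, so this comparison spans a rise and a fall of Pax7 signal. Tgfa, Erbb2, Btc, Hbegf and Erbb3 were higher with Pax7, 5 of 9 measured members, and 0 were lower, against a background of 16.9% of all genes (8.33% higher and 8.54% lower). Without the lowest 50% of genes by mean, 3206 of 9830 genes passed, beside 4 of the 7 members left. The log2 difference was 0.67 ± 0.048 for Tgfa (limma adjusted p = 3.92e-06) and 0.47 ± 0.0438 for Erbb2 (adjusted p = 2.83e-05). It was 0.30 ± 0.0458 for Btc (adjusted p = 0.000962) and 0.28 ± 0.0503 for Hbegf (adjusted p = 0.00303). Against a fold change of 1.2 (treat), Btc, Hbegf and Erbb3 did not pass (adjusted p = 1 for each), which left 2 of 9 members. The arrays of the groups did not overlap for these 5 members, as for 29.4% of all genes. Krt18 was also higher with Pax7 (1.79 ± 0.0941), as was Cd68 (0.68 ± 0.0603), while Des (-0.81 ± 0.0418) and Ncam1 (-0.60 ± 0.0401) were lower, and their part in these differences was not tested. Tgfa ranked 255th from the top of 19661 genes in this comparison. Tgfa, Erbb2, Btc and Hbegf lay further from control with Pax7 than with Pax3, while Erbb3 lay nearer to control with Pax7.

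Erbb3 and the members that did not pass differed less between the factors. Erbb3 was 0.17 ± 0.0479 higher (limma adjusted p = 0.0313), but the call depended on each of 4 arrays. Without Pax3 replicate 1 it was 0.18 (adjusted p = 0.0748), without Pax3 replicate 3 0.16 (0.0581), without Pax7 replicate 1 0.16 (0.111) and without Pax7 replicate 2 0.16 (0.114). The call of Erbb3 also ended when each array was centred on its median (adjusted p = 0.0687). Nrg1 differed by 0.19 (95% interval 0.03 to 0.35, adjusted p = 0.106), and passed without Pax3 replicate 1 (0.26, adjusted p = 0.0308). Erbb4 differed by 0.12 (-0.03 to 0.27, adjusted p = 0.313). For Egfr and Ereg the intervals given above bound the difference between the factors at 0.19 and 0.24 log2 units in size.

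Other genes of the pathway were followed through 5 lists, whose shares of genes past the threshold are to be read beside 43.2% of all genes with Pax7, 39.6% with Pax3 and 16.9% between Pax7 and Pax3. Those shares over all genes include genes of low signal. Without the lowest 50% of genes by mean, 6846 of 9830 genes passed with Pax7, 6528 with Pax3 and 3206 between Pax7 and Pax3. Among the remaining EGF family ligands Egf, Epgn, Nrg2, Nrg3 and Nrg4, 0 of 5 rose and 1 fell in each comparison with control. Their median log2 difference was 0.0269 with Pax7 and 0.0331 with Pax3, and this and the list medians below are to be read beside 0.0274 and 0.0157 over all genes. Epgn (epigen), the 1 that fell, changed by -0.19 ± 0.0649 with Pax7 (limma adjusted p = 0.0374) and -0.24 ± 0.0649 with Pax3 (adjusted p = 0.0125), at group means of 4.76, 4.71 and 4.94 in Pax7, Pax3 and control myoblasts. These means lie below the 95th percentile of the olfactory and vomeronasal genes, and the Pax7 and control arrays of Epgn overlapped. Between Pax7 and Pax3, 0 of the 5 passed by limma, also at an unadjusted p under 0.05, and Egf had the smallest p (-0.13 ± 0.0682, adjusted p = 0.248), followed by Nrg4 (0.10 ± 0.0572, adjusted p = 0.32).

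Genes for the shedding and transport of ligands changed in both directions. Of 11, 6 rose and 2 fell with Pax7 (median 0.167), and 5 rose and 3 fell with Pax3 (median 0.106), 72.7% in each. That share was near the one given above for genes without the lowest 50% by mean. Cd9, a tetraspanin that associates with the Hbegf precursor, rose by 1.18 with Pax7 and 0.75 with Pax3, and Rhbdf2 (iRhom2), which brings the sheddase Adam17 to the cell surface, rose by 1.10 and 0.63. The metalloproteinase Adam9 rose by 1.02 and 0.92, while Adam12, a metalloproteinase of fusing myoblasts, fell by 0.85 with Pax7 and by 1.00 with Pax3. Adam17 itself stood at 9.46, 9.48 and 9.69 in Pax7, Pax3 and control myoblasts and was lower with both factors (-0.23 and -0.21). With Pax7 relative to Pax3, 3 of 11 were higher, Rhbdf2 (0.47), Adam19 (0.44) and Cd9 (0.43), and 0 were lower. Against control, Adam19 fell by 0.56 with Pax3 and differed by -0.12 with Pax7 (limma adjusted p = 0.0558). Adam17 lies outside the rule for naming genes and was chosen after its values were seen.

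Among 23 inhibitors and turnover genes of the receptors, changes went both ways. With Pax7, 8 rose and 5 fell, and with Pax3, 6 rose and 6 fell (medians 0.0131 and -0.0043). These shares, 56.5% and 52.2%, were not far from those of all genes. The receptor phosphatases Ptprj, which can dephosphorylate Egfr, and Ptprk rose most, by 3.26 and 1.81 with Pax7 and by 2.69 and 0.91 with Pax3. Errfi1 (Mig6), an inhibitor of Egfr that is induced by its signal, rose by 0.57 with Pax7 and 0.70 with Pax3. Lrig3 and Lrig2, membrane proteins of a family that regulates ErbB receptors, fell by 0.78 and 0.62 with Pax7 and by 0.53 and 0.52 with Pax3, and the ubiquitin ligase Cblb fell by 0.48 and 0.71. With Pax7 relative to Pax3, 5 of the 23 were higher and 3 lower. Ptprk (0.90) and Ptprj (0.57) were higher, and Sh3kbp1 (-0.66), a partner of Cbl in receptor uptake, and Lrig3 (-0.25) were lower. Against control, Sh3kbp1 rose by 0.64 with Pax3 (limma adjusted p = 4.31e-05) and differed by -0.02 with Pax7 (adjusted p = 0.898).

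Of 24 adaptors and proximal effectors, 14 rose and 3 fell with Pax7 (median 0.255), and 13 rose and 4 fell with Pax3 (median 0.189). That was 70.8% in each comparison, where 21.6% of all genes were higher and 21.5% lower with Pax7, and 19.8% and 19.7% with Pax3. Without the lowest 50% of genes by mean, 6846 of 9830 genes passed with Pax7 and 6528 with Pax3. The share of this list was near that, so the share alone does not set the list apart. Eps8, a substrate of Egfr that acts on actin, rose by 3.38 ± 0.101 with Pax7 and 3.14 ± 0.101 with Pax3 (SE, limma adjusted p = 4.2e-10 and 1.35e-09), close to the size of the Egfr change. The phosphoinositide 3-kinase subunit Pik3cb rose by 1.00 and 0.34 and the docking protein Gab1 by 0.91 and 0.46. The regulatory subunit Pik3r3, which is known to bind Erbb3, fell by 1.96 with Pax7 and fell by 1.74 with Pax3. Stat5b rose by 0.66 with Pax7 and 0.52 with Pax3, and the Ras inhibitor Rasa1 by 0.40 and 0.50. Set directly against Pax3 myoblasts, Pax7 myoblasts were higher in 8 of the 24 and lower in 0, led by the exchange factor Vav3 (0.87), Pik3cb (0.66), Stat3 (0.47) and Gab1 (0.45).

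In the Ras to Erk cascade, the differences were smaller than those of Tgfa. Of 11 genes listed, 6 had a named probe set and the other 5 were not analysed here. With Pax7, 2 rose and 1 fell (median 0.056), and with Pax3, 3 rose and 1 fell (median 0.0511). With 6 genes, the share was 50% with Pax7 and 66.7% with Pax3. Without the lowest 50% of genes by mean, 6846 of 9830 genes passed with Pax7 and 6528 with Pax3. Beside that, neither share sets the list apart. The kinase Braf rose by 0.25 with Pax7 and 0.44 with Pax3, and Map2k1 (Mek1) by 0.39 and 0.37, while the scaffold Ksr1 fell by 0.43 and 0.29. Nras rose by 0.14 with Pax3 and differed by 0.12 with Pax7 (limma adjusted p = 0.0575). Between Pax7 and Pax3, Braf alone passed (-0.18, adjusted p = 0.0218).

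**Figure D4:**
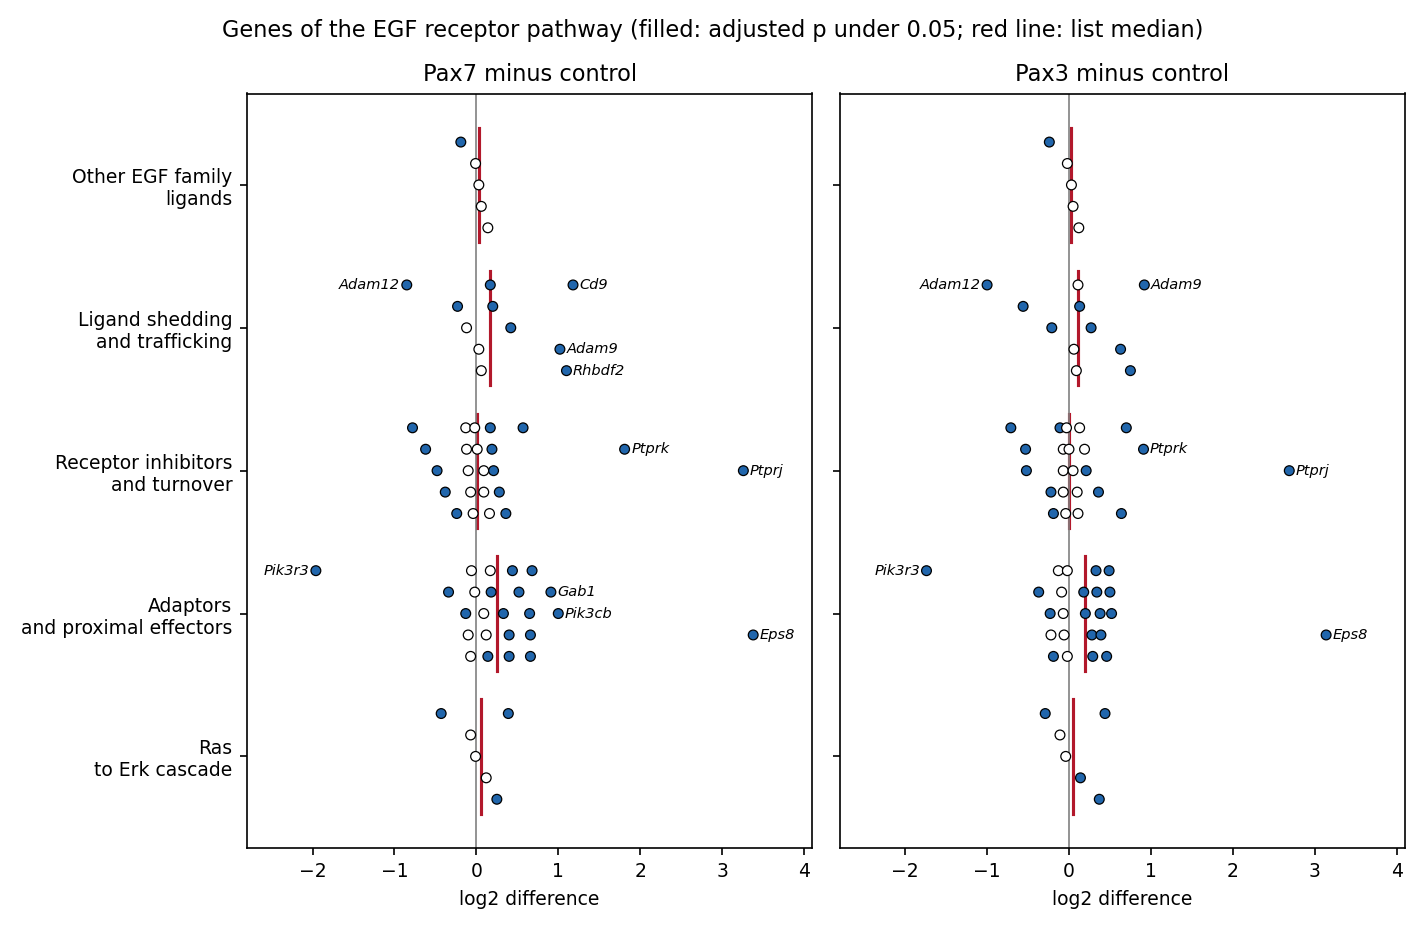
Log2 difference from control (horizontal axis) of the genes of 5 pathway lists (rows), for Pax7 and Pax3; points are genes, filled where the limma adjusted p was under 0.05, and red lines are list medians. Labels mark genes past the threshold that changed by at least 0.85. Eps8 (3.38 and 3.14) and Ptprj (3.26 and 2.69) lie furthest to the right, and Pik3r3 (-1.96 and -1.74) furthest to the left.

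Genes with the pattern most like a member were found for the 3 members whose group means spanned at least 1 log2 unit. Likeness was the root mean square difference of the values over the 9 arrays, each gene centred on its own mean, among 16827 other named genes. Because the arrays fall into 3 groups, nearness mostly reflects the group means, and it is a description. Nearest to Egfr were Pla2g4a (cytosolic phospholipase A2, difference 0.0874), Wdfy4 (0.117) and the adenylate kinase Ak5 (0.122). Pla2g4a stood at 11.86, 11.66 and 8.56 in Pax7, Pax3 and control myoblasts. Nearest to Ereg were the BMP antagonist Grem1 (0.122), the oxygen sensor Egln3 (0.133) and the myogenic factor Myf5 (0.143). Nearest to Tgfa were Npdc1 (0.0372), Tcn2 (transcobalamin, 0.0497) and Creg1 (0.0615), and Npdc1 stood at 9.74, 9.08 and 8.21.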

How the data were processed

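Total RNA from 9 myoblast samples was measured on arrays. The authors deposited log2 intensities normalised by RMA in R 2.10.0, per the submitters' processing notes. The genome build is not given in the sources used here. Of 25668 probe sets, 20777 carried 1 gene symbol in the platform annotation. The probe set with the highest mean stood for each gene, which gave 19661 genes and no filter on low values. limma 3.58.1 in R 4.3.3 fitted the 3 groups over all 9 arrays, with 6 residual and 4.37 prior degrees of freedom, and p-values were adjusted by the Benjamini-Hochberg method over all genes (threshold 0.05). The fit was tested on simulated data with independent normal noise and few changed genes. That setting lacks the identical values and the large share of changed genes seen here. The number of arrays limits the precision. Members and lists were chosen with earlier results of these data known. Besides the members, the text names the perturbed and sex-linked genes, markers from the cell type lists (picked after their values were seen), up to 4 genes with the largest change per pathway list and comparison (up to 2 by p where none passed), and the 3 genes nearest to each member whose group means span at least 1 log2 unit. Alternatives were single arrays left out, a replicate block, a filter, 2-group fits, a trended robust prior, centring, averaged probe sets and a minimum fold change of 1.2.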

Additional observations from a re-analysis of the deposited data

How the results depend on the processing

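Of 27 member results, 21 passed the threshold, and 15 of these passed under every alternative run in which they had a value. Of 426 alternative values, 410 kept direction and side of the threshold. Testing against a fold change of 1.2 asks for a larger change by construction. It left 3819 genes for Pax7 against control (8485 otherwise), 3264 for Pax3 against control (7780) and 784 for Pax7 against Pax3 (3316), and 2 members in place of 5 for Pax7 against Pax3. It ended the calls of Nrg1 for Pax7 against control (-0.31), of Hbegf (0.366) and Btc (0.391) for Pax3 against control, and of Erbb3 (0.172), Hbegf (0.275) and Btc (0.299) for Pax7 against Pax3. With arrays centred on their median, Erbb3 for Pax7 against Pax3 (0.171) no longer passed. The cause was not tested. With single arrays left out, the difference between Pax7 and Pax3 was 0.155 to 0.201 for Erbb3, 0.107 to 0.26 for Nrg1 and -0.072 to 0.047 for Ereg, which turned positive without Pax3 replicate 2 (0.047) and without Pax7 replicate 3 (0.023). Erbb4 for Pax3 against control was -0.064 to 0.049, positive without Pax3 replicate 2 (0.049). Same-numbered arrays of different groups correlated at -0.026 to 0.225 after removal of group means, with 3 of 9 pairs over 0.1. Arrays with different numbers correlated at -0.247 to 0.246. The highest correlation was with the own number for 4 of 9 arrays. These values do not decide whether the numbers pair the samples, and the main fit used no block. With the replicate block, Nrg1 for Pax7 against Pax3 (0.19) passed (limma adjusted p = 0.0475), which made 6 members, and no other member changed its call. Without the lowest 50% of genes by mean, the low members Erbb4 and Btc had no value. Members near the level of the olfactory and vomeronasal genes are limited by signal over background.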

Other observations

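The ligand genes Ereg and Btc lie in 1 group of EGF family genes on mouse chromosome 5, in the protein-coding order Cxcl2, Mthfd2l, Epgn, Ereg, Areg, Btc, Parm1 and Rchy1 (RefSeq GRCm38.p6, used for order alone). These neighbours were chosen after values of the members were seen. Ereg changed by 2.04 ± 0.103 with Pax7 and 2.05 ± 0.103 with Pax3, and Btc by 0.69 ± 0.0458 and 0.39 ± 0.0458 (log2 difference ± SE, limma). Next to Ereg on one side, Epgn stood at 4.76, 4.71 and 4.94 in Pax7, Pax3 and control myoblasts, below the 95th percentile of the olfactory and vomeronasal genes (5.53), so that its level is not clearly above background. Further out, Mthfd2l, an enzyme of mitochondrial folate metabolism, changed by -0.45 ± 0.0701 and -0.52 ± 0.0701 (adjusted p = 0.000288 and 0.000112). Beyond Btc, Parm1 changed by 0.24 ± 0.0744 with Pax7 (adjusted p = 0.0205) and by 0.02 ± 0.0744 with Pax3 (adjusted p = 0.865), and the ubiquitin ligase Rchy1 by -0.21 ± 0.0632 with each factor (adjusted p = 0.0195 and 0.0198). The chemokine Cxcl2 stood at 4.43, 4.35 and 4.34 in Pax7, Pax3 and control myoblasts and did not pass (adjusted p = 0.197 and 0.942). Areg was not analysed here.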
